A study of Mus musculus with 18 samples.

Results

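The genes described here are those of the extracellular matrix that the authors' tables name: every collagen chain gene of the pattern Col, number, a, number, every laminin chain gene, and Fn1, Dcn, Lum, Fbn1, Sparc and Fmod. The rule that picked them used gene names alone, and it was set with earlier results of these data known. There were 46 of them among the 15552 named genes of the 2 tables. By family they were 10 fibrillar collagens, 9 type IV or type VI collagens, 11 other collagens, 10 laminin chains and 6 other matrix genes. All 46 stood in the dorsal root table and 43 in the sciatic nerve table. The 43 genes with transcripts in both tables all passed the filter on low counts and were tested.

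RNA was sequenced, with a low-input SMART-Seq v4 kit, from axoplasm, the cell contents pressed out of minced nerve tissue, of C57B6 mice. It came from sciatic nerve (SN) or dorsal root (DR) of the same animals. In each tissue 1 group held RNA that came down with a rabbit antibody to Kif5A, one of the heavy chains of the kinesin-1 motor in neurons. A second held RNA that came down with rabbit IgG, the isotype control, and a further group was input, the axoplasm before precipitation. Each of these 6 groups had 3 libraries, each a separate biological repeat that pooled 5 animals, and no gene was altered in any animal. Named counts per library ran between 11584418 and 22580824. The study set out to profile the RNA targets of Kif5A in axons of sensory neurons, whose cell bodies lie between the root and the nerve.

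Collagens form triple helices of chains that carry glycine at every turn of a short repeat. Fibrillar collagens of types I, III and V make the fibres of the connective tissue sheaths of nerve, while type IV collagen and laminins build the basement membrane that wraps each Schwann cell and axon unit. Type VI collagen makes beaded filaments beside that membrane. The small proteoglycans Dcn, Lum and Fmod bind collagen fibrils, Fn1 and Fbn1 make fibrils of their own, and Sparc is a secreted collagen-binding protein.

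The mRNAs of the type I chains share a short stretch around the start codon, shown here because Col1a1 and Col1a2 return in several of the comparisons. In mammals that stretch folds into a stem-loop that binds the protein LARP6. The 30 bases around the start codon, from the GENCODE M21 transcripts, follow with the start codon in capitals.
Col1a1: tctagggtctagacATGttcagctttgtgg
Col1a2: tctaagtggtagacATGctcagctttgtgg
Col1a1 and Col1a2 had the same base at 25 of the 30 positions.

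The helical repeat is visible in the coding sequence as a GGN codon, which encodes glycine, at the start of each triplet. The first 45 bases of the longest unbroken run of such triplets are given for a fibrillar, a basement membrane and a filament chain, with the glycine codons in capitals.
Col1a2: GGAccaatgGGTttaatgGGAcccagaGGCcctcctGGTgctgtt
Col4a1: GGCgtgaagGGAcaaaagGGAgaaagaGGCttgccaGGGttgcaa
Col6a5: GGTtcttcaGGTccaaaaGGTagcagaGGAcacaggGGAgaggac
That run was 339 triplets long in Col1a2, 40 in Col4a1 and 37 in Col6a5. In Col3a1 it held 344 triplets and in Col1a1 338. Glycine codons made up 27.8% of the coding sequence of Col1a2 and 9.92% of that of Col6a5, whose chain is mostly globular.

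Col4a1 and Col4a2 encode the chains of the common type IV collagen and lie head to head on chromosome 8. Their promoters are shown because the mRNA of Col4a1 stood between 1.26 and 2.50 times that of Col4a2, per kilobase, in all 18 libraries. The 300 bases from 250 before to 50 after the RefSeq start of Col4a1 (GRCm38.p6, chr8:11312777-11313076, minus strand) follow, with the 78 bases that also lie in the window of Col4a2 in capitals.
Col4a1: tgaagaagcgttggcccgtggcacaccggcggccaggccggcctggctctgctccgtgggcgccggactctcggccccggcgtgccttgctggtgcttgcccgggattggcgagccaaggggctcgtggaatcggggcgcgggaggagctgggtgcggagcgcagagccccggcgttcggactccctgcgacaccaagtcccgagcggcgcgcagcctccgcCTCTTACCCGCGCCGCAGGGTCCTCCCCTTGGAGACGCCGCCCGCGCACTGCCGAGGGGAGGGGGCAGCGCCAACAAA
The window held ATTGG, which is CCAAT on the other strand, at position 106 and CCGCCC, which is GGGCGG on the other strand, at position 260, and these motifs did not overlap. RefSeq windows of this length were matched for 30 of the 46 genes, 31 windows in all. CCAAT, searched on both strands, stood in 8 of these (25.8%), against 37.4% of all 32851 windows. GGGCGG, searched likewise, stood in 21 (67.7%), against 35.7% of all. A match is a run of letters, not a site shown to be used.

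Levels are given as CPM, counts scaled to library size with the TMM factors, and as CPM per kilobase of transcript where genes are compared with each other. Per kilobase, Col3a1 (chromosome 1, 45311538 to 45349706) was the highest of the 43 genes in each sciatic nerve group, with a mean of 608 in Kif5A precipitates, 832 in IgG precipitates and 1259 in input. In dorsal root Dcn (chromosome 10, 97479609 to 97518143), the proteoglycan decorin, stood first in both precipitates with 461 and 568, and Col1a2 (chromosome 6, 4504814 to 4541544), the second chain of type I collagen, stood first in input with 387. Lum (chromosome 10, 97565128 to 97572703), the proteoglycan lumican, was within the top 3 of all 6 groups. Among all 12697 genes by CPM, Col3a1 ranked 13, 12 and 6 in Kif5A, IgG and input of sciatic nerve and 69, 31 and 60 in the same groups of dorsal root. At the other end, Lama3, Col26a1, Col12a1, Col11a2, Col15a1, Col24a1, Col4a4 and Col4a6 averaged under 1 CPM per kilobase over the 18 libraries. For Col26a1 and Col12a1 the tables list only transcripts that GENCODE annotates as retained introns.

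The genes together, 43 in the sciatic nerve table and 46 in the dorsal root table, held 1.48%, 1.83% and 1.46% of the named counts in the 3 Kif5A libraries of sciatic nerve, 1.79%, 2.30% and 1.59% in its IgG libraries and 2.78%, 3.08% and 1.25% in its inputs. In dorsal root the shares were 0.974%, 1.07% and 1.06% with Kif5A, 1.40%, 1.50% and 0.908% with IgG and 0.855%, 0.927% and 0.881% in input. Every sciatic nerve library lay above every dorsal root library of the same kind. With 3 libraries against 3, the two-sided exact permutation test cannot go below p = 0.1, and it gave p = 0.1 for each of these 3 contrasts. Within a tissue, only the shares of Kif5A and input in dorsal root were separate, with Kif5A higher (p = 0.1 by the same permutation test).

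**Figure D1:**
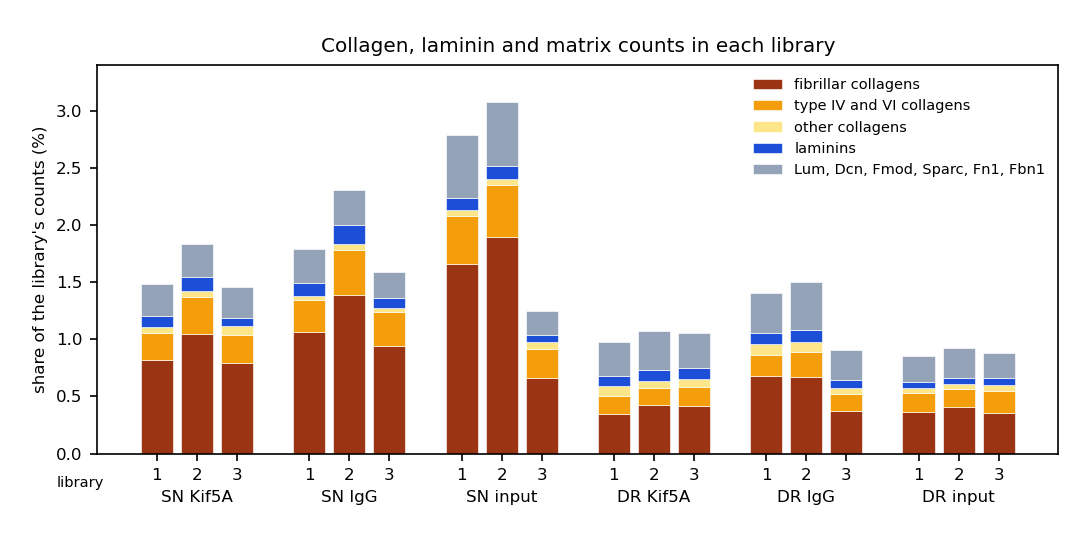
Share of the named counts of each library (vertical axis, percent) held by the matrix genes, stacked by family; SN is sciatic nerve and DR dorsal root, with libraries 1 to 3 of each group. Fibrillar collagens make up most of the sciatic nerve bars, and sciatic nerve input library 3, at 1.25%, is lower than libraries 1 and 2 of its group, at 2.78% and 3.08%.

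Sciatic nerve input library 3 stood apart, and comparisons with that group are affected. Col3a1 had 3064 CPM there, against 8340 and 9609 in libraries 1 and 2, while Sparc (chromosome 11, 55394500 to 55423183) had 542 CPM there, against 159 and 166. Perineurial markers summed to 1514 CPM in it, against 2990 and 3306, and adipocyte markers to 4337 CPM, against 11702 and 13915. IgG libraries varied more among themselves than the libraries of the other groups did. The log2 CPM of all genes correlated at 0.840 to 0.845 between sciatic nerve IgG libraries. Between those of dorsal root it correlated at 0.822 to 0.844, against at least 0.912 within the other groups.

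Markers of several other cell types moved with the tissue. Of 15 fibroblast markers outside the matrix genes, 14 were measured and summed to between 5080 and 8461 CPM in sciatic nerve libraries and between 1162 and 2700 CPM in those of dorsal root. For 8 of 9 perineurial markers the sums ran from 1261 to 3306 CPM in sciatic nerve and from 429 to 789 CPM in dorsal root. Adipocyte markers (6 of 9) reached 4337 to 83802 CPM in sciatic nerve and 125 to 305 CPM in dorsal root. Skeletal muscle markers (6 of 8) summed to 355 to 1025 CPM in sciatic nerve and 27.4 to 138 CPM in dorsal root. Meningeal markers (7 of 9) went the other way, with 168 to 477 CPM in sciatic nerve and 781 to 1452 CPM in dorsal root. Sensory neuron and axon markers (8 of 12 measured; Prph, Scn10a, Scn9a and Avil were not tested here) summed to 83.8 to 181 CPM in sciatic nerve and 688 to 1046 CPM in dorsal root, and Isl1 was at 0 in Kif5A and IgG of sciatic nerve and in IgG of dorsal root. Astrocyte and oligodendrocyte markers (8 of 10) summed to 303 to 807 CPM in sciatic nerve and 1566 to 3293 CPM in dorsal root. The ranges of the 2 tissues overlapped for myelinating Schwann cell markers (11 of 12), at 5442 to 29659 CPM in sciatic nerve and 14216 to 33473 CPM in dorsal root. They also overlapped for macrophage markers (9 of 9), at 931 to 1543 CPM in sciatic nerve and 865 to 2030 CPM in dorsal root. Endothelial markers (8 of 11) overlapped over all libraries, at 370.0 to 864 CPM in sciatic nerve and 226 to 436 CPM in dorsal root. Among libraries of the same kind they overlapped only in input, at 370.0 to 436 CPM against 346 to 436 CPM. Sciatic nerve was higher without overlap in Kif5A, at 412 to 450 CPM against 226 to 360 CPM. The same held in IgG, at 515 to 864 CPM against 241 to 358 CPM. In bulk RNA, fewer cells of a type and less RNA per cell cannot be told apart. The part of these cell types in the differences between tissues below was not tested.

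Between the inputs of the 2 tissues 13 matrix genes were called, and 8 of them were fibrillar or type VI collagens. In sciatic nerve input 12 of the 43 genes were higher and 1 was lower than in dorsal root input (edgeR quasi-likelihood test, Benjamini-Hochberg adjusted p under 0.05 over 12215 genes), against 4.12% of all genes called. Of all genes, 2.33% were called higher and 1.78% lower. The median log2 ratio of the 43 genes was 0.96, beside 0.06 over all genes, and 32 of the 43 were positive. The 3 libraries of sciatic nerve all lay above those of dorsal root for 22 of the 43 genes, against 9.97% of all genes, and all below for 5, against 11.1%. DESeq2 called 24 of 43, against 8.39% of all genes. The called genes included type I, III and V fibrillar chains, all 4 type VI chains, Col4a4, Col8a1 and Fbn1 upward, and Lamc3 downward.

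Col1a1 (chromosome 11, 94936224 to 94953042), the first chain of type I collagen, had 1406, 1867 and 817 CPM in sciatic nerve input, against 306, 287 and 319 CPM in dorsal root input. The groups did not overlap, and the log2 ratio was 2.17 ± 0.31 (SE; adjusted p = 0.00423 by edgeR). Col3a1, the chain of type III collagen, had 8340, 9609 and 3064 CPM, against 1114, 1635 and 1198 CPM in dorsal root. It rose by a log2 of 2.42 ± 0.41 (edgeR adjusted p = 0.0110). Col1a2 had 5976, 6700 and 2730 CPM in sciatic nerve, against 2120, 2222 and 1852 CPM in dorsal root. All sciatic nerve values again lay above those of dorsal root, but its log2 ratio of 1.33 ± 0.32 missed the threshold (edgeR adjusted p = 0.0631).

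Type V collagen sets the width of type I fibrils. Its chains Col5a3 (chromosome 9, 20770050 to 20815067) and Col5a1 rose by log2 ratios of 1.84 ± 0.24 and 1.89 ± 0.25. Col5a3 had 355, 415 and 285 CPM in sciatic nerve input, against 106, 89.8 and 102 CPM in dorsal root input, without overlap. Col5a2 (log2 ratio 1.40 ± 0.39, edgeR adjusted p = 0.102) did not pass. Of the 10 fibrillar chains 4 were called higher and none lower, their median log2 ratio was 1.36, and Col11a2 and Col24a1 had negative ratios.

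Type VI collagen chains were higher in sciatic nerve input without exception among the 4 measured. Col6a5 (chromosome 9, 105856078 to 105960643) had 53.2, 60.5 and 17.4 CPM, against 0.614, 0.816 and 0.332 CPM in dorsal root. This was the widest gap of the 43 genes, a log2 ratio of 6.20 ± 0.61 (edgeR adjusted p = 0.000559), and it rests on 29 reads in all in the dorsal root inputs. Col6a3 (chromosome 1, 90765923 to 90843971) had 435, 497 and 138 CPM, against 60.4, 78.5 and 55.9 CPM. Its log2 ratio was 2.47 ± 0.45 (edgeR adjusted p = 0.0162). Col6a1 (chromosome 10, 76708792 to 76726168) and its neighbour Col6a2 rose by 1.59 ± 0.26 and 1.78 ± 0.26 on the log2 scale.

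The main basement membrane collagens did not pass here, though Col4a1 and Col4a2 were called without sciatic nerve input library 3. Col4a1 (chromosome 8, 11198423 to 11312826) had 1208, 1271 and 876 CPM in sciatic nerve input, against 857, 796 and 829 CPM in dorsal root input, a log2 ratio of 0.45 ± 0.22 (edgeR adjusted p = 0.412). Col4a2 (chromosome 8, 11312805 to 11449287), read from the promoter shared with Col4a1, had 681, 749 and 661 CPM, against 397, 370 and 559 CPM (log2 ratio 0.67 ± 0.23, edgeR adjusted p = 0.194). Values of both genes lay higher in sciatic nerve without overlap. Col4a4 (chromosome 1, 82448423 to 82586849), a chain of the type IV collagen of kidney and some other tissues, had 9.19, 11.7 and 7.45 CPM, against 1.51, 0.816 and 2.98 CPM. It rose by a log2 of 2.43 ± 0.54 (edgeR adjusted p = 0.0415). Col4a3, whose gene starts 71 bases away on the other strand, had a log2 ratio of 1.69 that did not pass.

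Of the laminin chains, Lamc3 fell. Lamc3 (chromosome 2, 31887291 to 31946539), which encodes the gamma 3 chain, had 8.08, 11.1 and 7.28 CPM in sciatic nerve input, against 49.6, 68.0 and 75.3 CPM in dorsal root input. It was the only one of the 43 called lower (log2 ratio -2.85 ± 0.30, edgeR adjusted p = 0.000819). Lama2 (chromosome 10, 26980036 to 27619758), the alpha chain of Schwann cell basement membrane that is mutated in a congenital muscular dystrophy, had 267, 309 and 140 CPM, against 153, 183 and 185 CPM. These values overlapped (log2 ratio 0.47 ± 0.30). Lamb2 (chromosome 9, 108479736 to 108490530), the beta 2 chain, had 240, 300 and 191 CPM, against 143, 132 and 117 CPM, without overlap, and missed the threshold (edgeR adjusted p = 0.0856).

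The other matrix genes split. Fbn1 (chromosome 2, 125300594 to 125507993), the microfibril protein fibrillin-1, had 103, 135 and 44.0 CPM in sciatic nerve input, against 17.4, 20.1 and 16.8 CPM in dorsal root input. Its log2 ratio was 2.38 ± 0.40 (edgeR adjusted p = 0.0104). Fmod (chromosome 1, 134037254 to 134048277), the proteoglycan fibromodulin, had 189, 180 and 60.1 CPM, against 538, 570 and 370 CPM. All its sciatic nerve values were below those of dorsal root, and its log2 ratio of -1.77 ± 0.42 came just short (edgeR adjusted p = 0.0530). Lum had 3640, 3783 and 925 CPM in sciatic nerve, against 715, 1081 and 768 CPM in dorsal root, which overlapped through sciatic nerve library 3.

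Ratios between chains, per kilobase and within each library, do not depend on the scaling. The level of Col3a1 over that of Col1a2 was 1.34, 1.38 and 1.08 in sciatic nerve input and 0.505, 0.706 and 0.622 in dorsal root input. For Col1a1 over Col1a2 the inputs gave 0.212, 0.251 and 0.269 in sciatic nerve and 0.130, 0.117 and 0.155 in dorsal root. Type I collagen holds more alpha 1 than alpha 2 chains, while the Col1a1 mRNA was below the Col1a2 mRNA in both tissues. Lamc3 over Lamc1 stood at 0.0834, 0.0991 and 0.139 in sciatic nerve input and at 0.717, 1.11 and 1.02 in dorsal root input. Fmod over Lum was 0.0408, 0.0374 and 0.0509, against 0.591, 0.414 and 0.378. None of these 4 ratios overlapped between the inputs. Col4a1 over Col4a2 ranged from 1.29 to 1.73 in sciatic nerve input and from 1.45 to 2.11 in dorsal root input, and these ranges overlapped.

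The number of calls in the inputs depended on single libraries. It was 32 without sciatic nerve input library 3 and 6, 5 and 7 without dorsal root input libraries 1, 2 and 3. Col4a1, Col4a2, Lama2 and Lamb2 were among the 32. Col6a5, Col5a1, Col5a3, Col1a1 and Lamc3 passed with any 1 of the 6 libraries left out. With the repeat number as a block, which pairs these inputs, 16 genes were called: the same 13, with Col1a2 (adjusted p = 0.0274) and Fn1 (adjusted p = 0.0465) higher and Fmod (adjusted p = 0.00331) lower, all by edgeR.

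**Figure D2:**
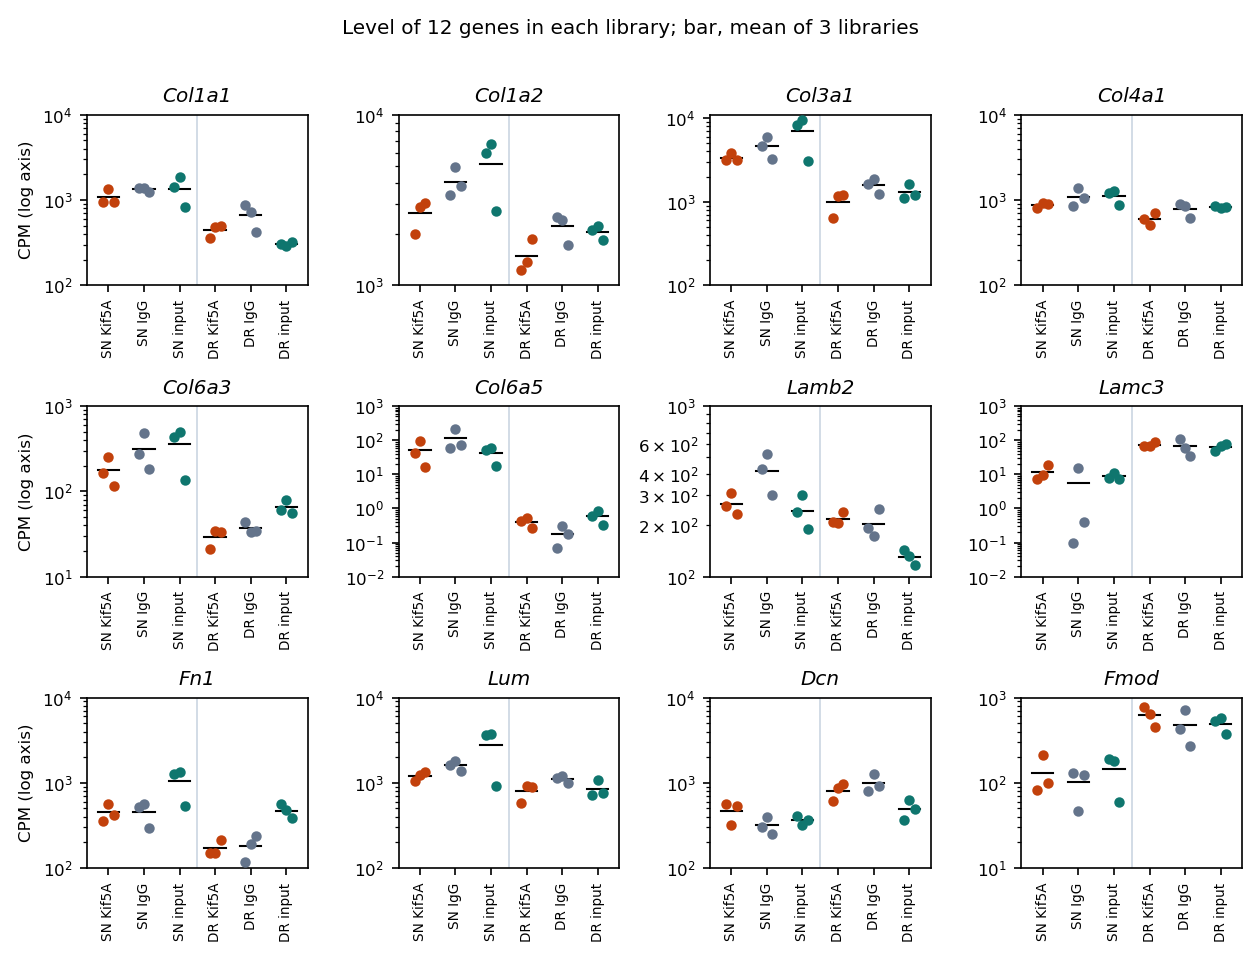
CPM of 12 of the genes in each of the 18 libraries (log axis, its range differing between panels), with sciatic nerve groups left of the line and dorsal root groups right of it; points are libraries 1 to 3 and the bar is their mean. Col6a5 lies between 16.7 and 222 CPM in all sciatic nerve libraries and below 1 CPM in all of dorsal root, Lamc3 and Fmod are lower in sciatic nerve input, and Dcn lies within one order of magnitude throughout.

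The precipitates were compared between tissues in the same way. Among Kif5A precipitates, 4 of 43 genes were higher in sciatic nerve and none was lower, against 0.988% of 12551 genes called, 0.669% higher and 0.319% lower. DESeq2 called 10 of the 42 it tested, against 2.78% of all genes. These 4 were Col6a5, Col6a3, Col3a1 and Col6a2. Col6a5 had 42.1, 92.7 and 16.7 CPM with Kif5A in sciatic nerve, against 0.438, 0.517 and 0.259 CPM in dorsal root (log2 ratio 6.93 ± 0.87, edgeR adjusted p = 0.00111). Col6a3 had 165, 253 and 115 CPM, against 20.8, 34.6 and 33.1 CPM (log2 ratio 2.58 ± 0.41, edgeR adjusted p = 0.00681). For Col3a1 the values were 3196, 3826 and 3120 CPM, against 646, 1172 and 1187 CPM (log2 ratio 1.75 ± 0.31, edgeR adjusted p = 0.0148). The groups did not overlap for any of the 3. The count fell to 1, Col6a5, without dorsal root Kif5A library 1, and to 2, Col6a3 and Col6a5, without either dorsal root Kif5A library 2 or sciatic nerve Kif5A library 2.

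Among IgG precipitates 9 genes were higher and 3 lower in sciatic nerve, against 5.19% of genes called, 2.60% in each direction. DESeq2 called 19 of the 42 it tested, against 15.5% of all genes. Higher were Col6a5, Col6a3, Col6a1, Col6a2, Col3a1, Col27a1, Fbn1, Fn1 and Lamb2, and lower were Dcn, Col9a2 and Fmod. Dcn had 305, 399 and 253 CPM with IgG in sciatic nerve, against 807, 1272 and 916 CPM in dorsal root, a log2 ratio of -1.65 ± 0.31 (edgeR adjusted p = 0.0109). Col9a2, a chain of a collagen best known from cartilage, had 30.2, 41.7 and 10.2 CPM, against 174, 137 and 153 CPM. It fell by 2.51 on the log2 scale (SE 0.49, edgeR adjusted p = 0.0125). Col27a1 (chromosome 4, 63214004 to 63334991), a fibrillar chain of cartilage and other tissues, had 26.1, 23.8 and 34.5 CPM, against 6.41, 4.38 and 2.81 CPM. All 3 genes had separate groups. Without dorsal root IgG library 2 the count was 7, and a fit on the 6 IgG libraries alone left 2 calls, Col6a3 and Col6a5.

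**Figure D3:**
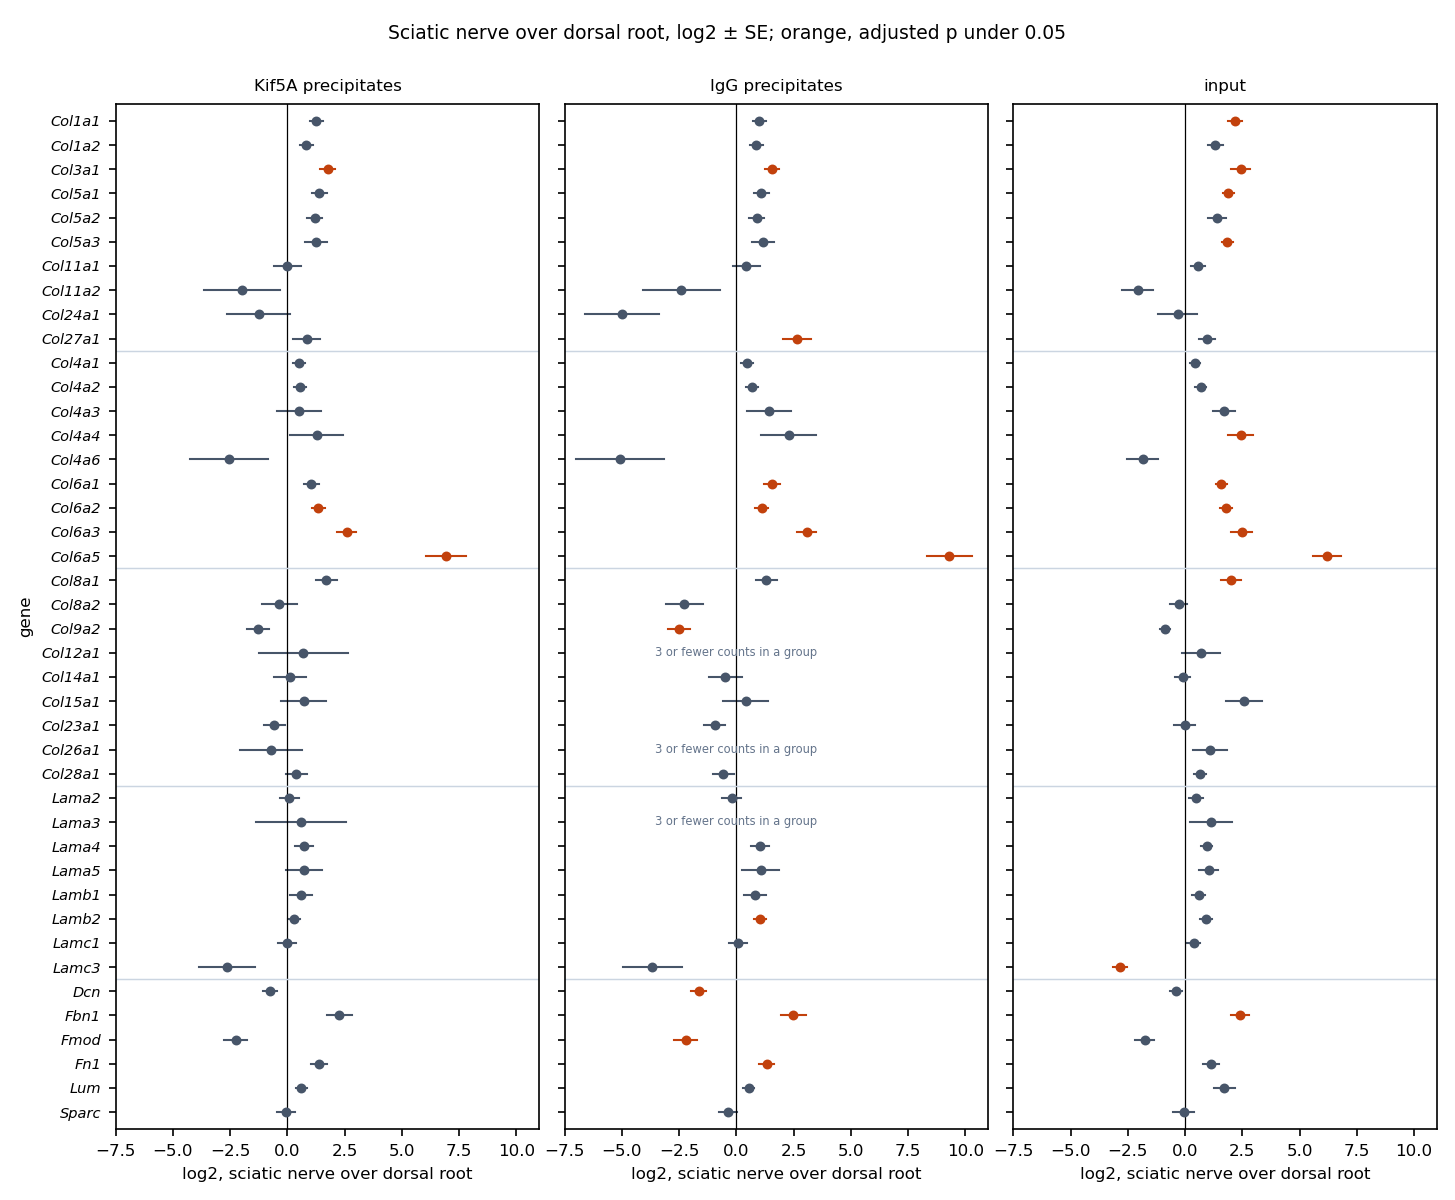
Log2 ratio of sciatic nerve over dorsal root (horizontal axis) for 42 of the 43 genes, grouped by family, in Kif5A precipitates, IgG precipitates and input; lines are ± SE, orange marks an adjusted p under 0.05, and a gene with 3 or fewer counts in a group has no point. Type VI chains lie right of 0 in all 3 panels and Lamc3 and Fmod left of it.

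Kif5A and IgG precipitates were compared to ask which RNAs came down with the motor beyond the isotype control. No matrix gene passed in either tissue. In sciatic nerve 0 of 43 genes were called by edgeR, against 0.0478% of all genes (6 of 12551). With an unadjusted p below 0.05, 1 was higher, against 6.18% of all genes, and 3 were lower, against 2.26%. DESeq2 called 1, Col8a2, of the 42 it tested, against 3.29% of all genes. In dorsal root 0 of 43 were called, against 0% of all genes. There 2 had an unadjusted p below 0.05 and were higher, against 4.33% of all genes, and 2 were lower, against 1.65%, while DESeq2 called 0 of 42, against 1.21%. The median log2 ratio of the 43 genes was -0.11 in sciatic nerve and -0.05 in dorsal root, beside -0.02 and -0.01 over all genes. The smallest adjusted p by edgeR was 0.330 in sciatic nerve (Col8a2) and 0.602 in dorsal root (Col5a2).

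Col1a2 had 2004, 2871 and 3046 CPM with Kif5A in sciatic nerve, against 3376, 4941 and 3839 CPM with IgG. These groups did not overlap, and the log2 ratio was -0.57 ± 0.28 (edgeR adjusted p = 0.627). In dorsal root Col1a2 had 1229, 1375 and 1859 CPM with Kif5A, against 2498, 2419 and 1722 CPM with IgG, which overlapped (log2 ratio -0.52 ± 0.28, edgeR adjusted p = 0.935). Fibrillar collagens had negative ratios for 7 of 10 chains in each tissue, with medians of -0.34 in sciatic nerve and -0.53 in dorsal root. Over all 43 genes, 20 ratios were positive in sciatic nerve and 18 in dorsal root.

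In sciatic nerve the smallest p values belonged to Col8a2, Lama4 and Lamb2. Col8a2 (chromosome 4, 126286793 to 126314330), a chain of the short-chain collagen of the cornea and of vessels, had 16.7, 15.2 and 96.2 CPM with Kif5A, against 5.45, 10.5 and 8.94 CPM with IgG. The groups did not overlap, and Kif5A library 3 was far above the other two. The log2 ratio was 2.42 ± 0.80, with an edgeR adjusted p of 0.330. DESeq2 gave an adjusted p of 0.0469, the lowest over its alternatives, which reached 1.0. Lama4 (chromosome 10, 38965515 to 39110188), the alpha 4 chain of endothelial and nerve basement membranes, had 166, 199 and 89.5 CPM, against 167, 491 and 229 CPM with IgG. Lamb2 had 259, 310 and 233 CPM, against 426, 526 and 300 CPM. Both overlapped between groups. Non-overlap with lower Kif5A values was seen for 7 of 43 genes, against 6.62% of all genes, and with higher Kif5A values for 2, against 9.35%.

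In dorsal root they belonged to Col5a2, Lama3 and Col26a1. Col5a2 (chromosome 1, 45374321 to 45503282), the second chain of type V collagen, had 150, 102 and 117 CPM with Kif5A, against 265, 351 and 142 CPM with IgG (log2 ratio -0.98 ± 0.34). Only IgG library 3 fell within the Kif5A range. Lama3 (chromosome 18, 12333819 to 12583013), the alpha 3 chain of epithelial basement membranes, had 0, 154 and 9 counts with Kif5A, against 0, 0 and 0 with IgG. Set against a floor of 3 counts over the group it was at least 44.9-fold higher, nearly all of it from Kif5A library 2. Col26a1 (chromosome 5, 136741759 to 136883209), a collagen of few known functions, had 40, 8 and 17 counts with Kif5A, against 0, 1 and 1 with IgG. The ratio of its summed counts was 26.8 (exact 95% interval 7.14 to 226, for counting error only). Non-overlap was seen for 2 genes with higher and 4 with lower Kif5A values, against 7.83% and 5.43% of all genes.

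**Figure D4:**
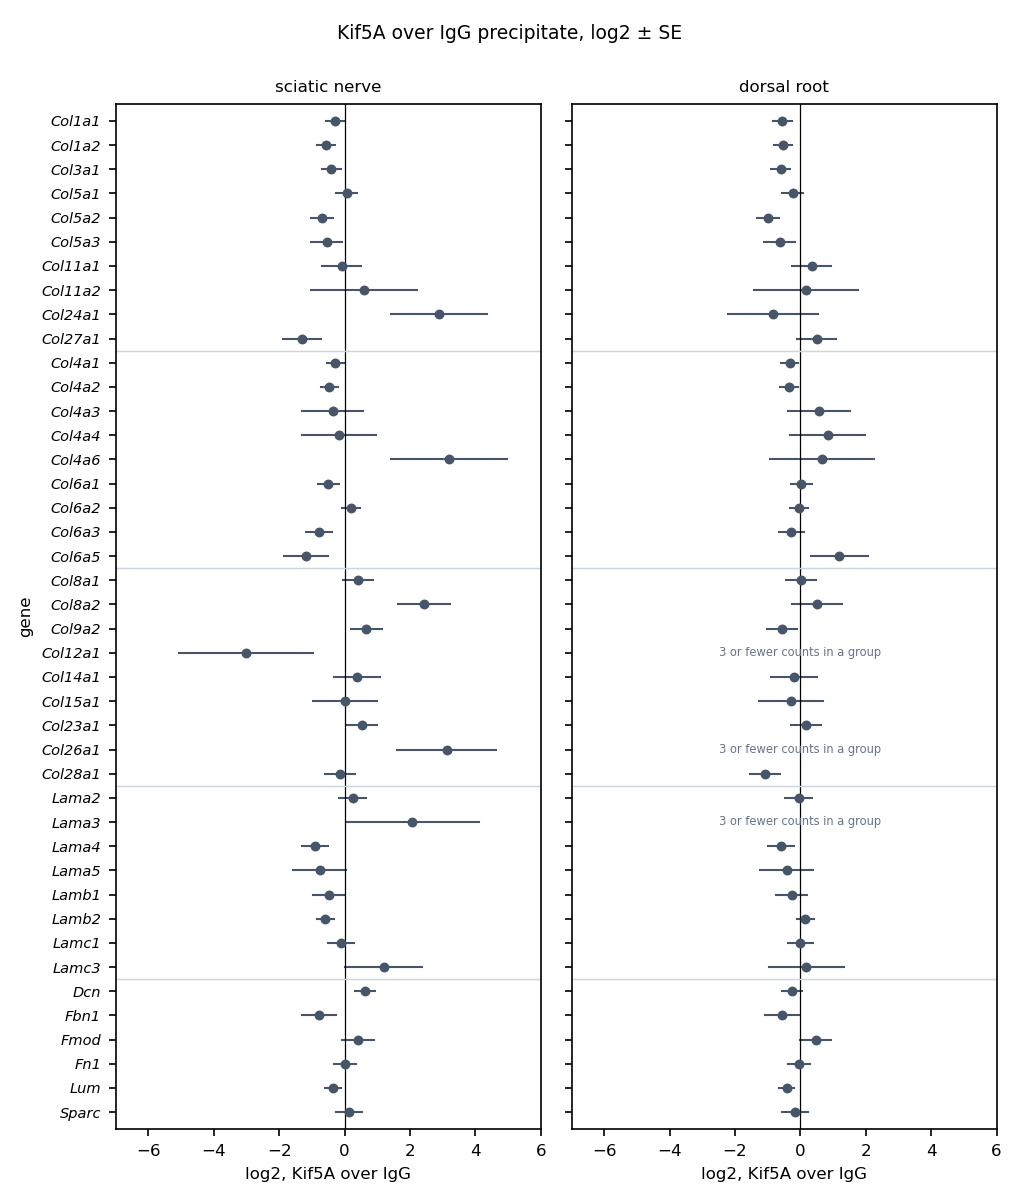
Log2 ratio of Kif5A over IgG precipitate (horizontal axis) for 42 of the 43 genes, grouped by family, in sciatic nerve and dorsal root; lines are ± SE, and a gene with 3 or fewer counts in a group has no point. No gene shown passed an adjusted p of 0.05, and chains of types I and III lie left of 0 in both panels.

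The Kif5A over IgG ratio was compared between the tissues in the same fit. None of the 43 genes differed by edgeR, against 0.0159% of all genes. Of the 43, 0 had an unadjusted p below 0.05 in the positive direction, against 3.67% of all genes, and 1 in the negative, against 2.71%. DESeq2 called 0 of 42, against 1.51%. Col6a5 had the smallest p: its log2 ratio was -1.18 ± 0.66 in sciatic nerve and 1.19 ± 0.86 in dorsal root, a difference of -2.37 ± 1.09 (edgeR adjusted p = 0.782). In dorsal root that ratio rests on 8, 9 and 5 counts with Kif5A and 1, 4 and 3 with IgG. Col27a1 had 8.74, 10.0 and 14.5 CPM with Kif5A in sciatic nerve, against the IgG values given above, and a difference of -1.80 ± 0.83. Dcn had 569, 317 and 530 CPM with Kif5A in sciatic nerve and 608, 863 and 961 CPM in dorsal root, and a difference of 0.87 ± 0.43.

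The authors' deposited table, which tests single transcripts, called a few matrix transcripts for Kif5A against IgG, where the edgeR test per gene called none. Of 62 matrix transcripts of sciatic nerve in the authors' deposited table, 2 were higher with Kif5A than with IgG and 0 lower. The threshold was a false discovery rate under 0.05, which 6.69% of all its transcripts passed in either direction. For dorsal root the authors' deposited table had 5 of 63 higher and 0 lower, beside 6.59% of all its transcripts in either direction. Those of sciatic nerve were Col3a1-203 and Lamc1-202, and those of dorsal root were Lama4-202, Lama4-203, Lama4-204, Lama3-201 and the Col26a1 transcript. Apart from Lama3-201 all of these are annotated as retained introns. Lamc1-202 had 12, 13 and 15 counts with Kif5A in sciatic nerve, 0, 0 and 0 with IgG and 71, 57 and 6 in input. Col3a1-203 had 41, 98 and 2 counts with Kif5A, 1, 1 and 1 with IgG and 229, 180 and 32 in input. Lama4-202 had 79, 0 and 10 counts with Kif5A in dorsal root, 0, 0 and 0 with IgG and 73, 41 and 57 in input. Lama3-201 had 0, 154 and 9 counts with Kif5A in dorsal root, 0, 0 and 0 with IgG and 8, 20 and 13 in input, so that most of its Kif5A counts came from 1 library. The Col26a1 transcript had 40, 8 and 17 counts with Kif5A, 0, 1 and 1 with IgG and 20, 9 and 4 in input. Every input library of the tissue held counts of these transcripts, and whether Kif5A or input had more differed between them. Retained-intron transcripts made up 0.318% to 0.767% of the matrix counts of a library. The retained-intron transcript Sparc-205 held 9.45% to 15.8% of the Sparc counts. No source says that the counting used strand, so reads from overlapping or antisense genes cannot be told apart.

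Kif5A precipitates were also set against input. No gene was called by edgeR in either tissue, 0 of 43 against 0.00789% of all genes in sciatic nerve and 0 of 43 against 0% in dorsal root. In sciatic nerve 0 were higher with an unadjusted p below 0.05, against 2.56% of all genes, and 8 were lower, against 3.52%. In dorsal root 2 were higher, against 3.28%, and 3 lower, against 5.11%. DESeq2 called 2 lower in each tissue, against 0.381% of all genes in sciatic nerve and 1.33% in dorsal root: Col6a1 and Fbn1 in sciatic nerve and Fn1 and Fbn1 in dorsal root. Fn1 (chromosome 1, 71585520 to 71653200), fibronectin, had 150, 151 and 212 CPM with Kif5A in dorsal root, against 562, 474 and 382 CPM in input. The groups did not overlap (log2 ratio -1.47 ± 0.37, edgeR adjusted p = 0.288), and the authors' deposited table called its main transcript lower. In sciatic nerve Fn1 had 356, 571 and 420 CPM, against 1252, 1338 and 529 CPM in input, which overlapped (log2 ratio -1.21 ± 0.37).

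Fbn1 had 17.6, 40.0 and 32.0 CPM with Kif5A in sciatic nerve, against 103, 135 and 44.0 CPM in input, and 3.83, 4.19 and 10.6 CPM in dorsal root, against 17.4, 20.1 and 16.8 CPM in input. Neither pair overlapped, with log2 ratios of -1.65 ± 0.48 and -1.55 ± 0.48 (edgeR adjusted p = 0.574 and 0.345). Col6a1 had 389, 556 and 437 CPM with Kif5A in sciatic nerve, against 1152, 1236 and 731 CPM in input. Its groups did not overlap (log2 ratio -1.17 ± 0.31, edgeR adjusted p = 0.514), and it too was lower in the authors' deposited table. Lamb2 in dorsal root had 210, 208 and 238 CPM with Kif5A, against 143, 132 and 117 CPM in input, without overlap (log2 ratio 0.74 ± 0.26, edgeR adjusted p = 0.419). Without sciatic nerve input library 3, 1 gene was called lower in sciatic nerve, Lum.

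IgG precipitates, which hold what sticks to beads and antibody without the motor, were set against input in the same way. By edgeR 0 of 43 genes were called in sciatic nerve, against 3.74% of all genes, and 0 of 43 in dorsal root, against 1.23%. With an unadjusted p below 0.05, 4 were higher in sciatic nerve, against 8.81% of all genes, and 5 lower, against 10.4%. In dorsal root 10 were higher, against 9.12%, and 4 lower, against 10.3%. DESeq2 called 5 in sciatic nerve, against 11.2% of all genes, and 8 in dorsal root, against 11.3%. Fn1 had 520, 561 and 297 CPM with IgG in sciatic nerve, against 1252, 1338 and 529 CPM in input (log2 ratio -1.18 ± 0.37, edgeR adjusted p = 0.0816), and 118, 191 and 238 CPM with IgG in dorsal root, against 562, 474 and 382 CPM (log2 ratio -1.37 ± 0.37, edgeR adjusted p = 0.0666). The dorsal root groups did not overlap. These IgG ratios and the Kif5A ratios above share their input libraries.

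Several genes were higher with IgG than in dorsal root input without passing. Col28a1 (chromosome 6, 7997808 to 8192617), a collagen known from the basement membrane around peripheral glia, had 86.2, 61.3 and 53.6 CPM with IgG, against 19.3, 21.1 and 23.7 CPM in input. These groups were far apart (log2 ratio 1.65 ± 0.42, edgeR adjusted p = 0.0576). Col1a1 had 868, 729 and 424 CPM, against 306, 287 and 319 CPM (log2 ratio 1.15 ± 0.31, edgeR adjusted p = 0.0666). Without dorsal root IgG library 3, 5 genes were called, among them Col28a1, Col1a1 and Fn1. In sciatic nerve 3 genes were called without IgG library 3, 1 without IgG library 2 and 2 without input library 3.

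The scaling of the libraries moved some medians over all genes. With library size alone in place of TMM, the median log2 ratio of all genes in Kif5A against input moved to 0.39 in dorsal root, against 0.06 with TMM, and to 0.20 in sciatic nerve, against 0.02. The number of the 43 genes with a positive ratio then was 28 in dorsal root, against 22 with TMM, and 20 in sciatic nerve, against 17. In IgG against input of dorsal root that median moved to 0.30, against 0.06, and in sciatic nerve to 0.07, against 0.01. Between sciatic nerve and dorsal root it moved to -0.14 in IgG, against 0.00, and to -0.09 in Kif5A, against 0.02.

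Other genes of the matrix were followed as lists, with 2.33% of all genes called higher and 1.78% called lower in sciatic nerve input than in dorsal root input. Of 21 tested genes for collagen processing, 4 were higher and none lower in sciatic nerve input than in dorsal root input: Adamts14 and Adamts2, which trim collagen ends, Bmp1, which does so at the other end, and Lox, which cross-links fibrils. Adamts14 had a log2 ratio of 2.24 ± 0.31 and Bmp1 one of 2.62 ± 0.39. Among 24 tested further matrix genes 4 were higher, led by Thbs4 (log2 ratio 3.68 ± 0.33) and Dpt (3.27 ± 0.43), and Mgp was lower. Of 23 tested receptors 2 were higher, the laminin-binding integrin chain Itga7 (log2 ratio 1.68 ± 0.28) and Gpc1. Among 15 tested proteases and inhibitors 1 was higher, Mmp2 (log2 ratio 2.21 ± 0.23), which degrades type IV collagen. The median log2 ratios of the 4 lists were 0.46, 0.35, 0.37 and -0.24 in this order, beside 0.06 over all genes, and the counts of 2 and 1 are too few to be read against the share of all genes. With Kif5A against IgG in sciatic nerve, Mmp9, a protease of neutrophil granules, was higher (log2 ratio 6.42 ± 0.78, edgeR adjusted p = 0.0114), and no other gene of these 4 lists was called there or in dorsal root. Mmp9 averaged 17.7 ± 8.79 CPM with Kif5A in sciatic nerve, 0.209 ± 0.200 CPM with IgG and 6.35 ± 1.78 CPM in input (SD, n = 3 each), so this ratio is against an IgG group near 0. That IgG group was also lower than input (log2 ratio -4.88 ± 0.67, edgeR adjusted p = 0.00224) and lower than IgG of dorsal root, which averaged 63.2 ± 25.7 CPM (SD, n = 3). The Kif5A over IgG ratio of Mmp9 differed between the tissues, by a log2 of 7.44 ± 0.97 (edgeR adjusted p = 0.0364).

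The 3 genes in the dorsal root table only were low and uneven. Col22a1, a collagen of tissue junctions, had 76, 131 and 65 counts with Kif5A, 478, 0 and 7 with IgG and 188, 85 and 68 in input. Col25a1, a membrane collagen of neurons, had 292, 27 and 137 counts with Kif5A, 29, 576 and 113 with IgG and 213, 121 and 156 in input. Lama1, the alpha 1 chain of the embryonic laminin, had 41, 296 and 189 counts with Kif5A, 24, 14 and 180 with IgG and 170, 121 and 99 in input. In each of them the IgG libraries varied more than the inputs. Kif5A libraries also varied more than the inputs for Col25a1 (SD 7.28 against 2.18 CPM) and Lama1 (7.38 against 1.49 CPM), but not for Col22a1 (2.21 against 3.25 CPM). Tested within the dorsal root table alone, none of the 3 passed for Kif5A against IgG (smallest edgeR adjusted p = 0.785, Lama1).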

How the data were processed

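RNA of 18 libraries was analysed. The authors deposited 1 table per tissue with raw read counts per Ensembl transcript, made with the SMART-Seq v4 kit per the labels, beside a normalized signal per library (not used) and, per the file headers, their log2 fold change, p-value and false discovery rate for each contrast. The submitters' processing notes name CASAVA 1.8.2, edgeR and mm10 (GRCm38). The aligner, counter, use of strand and annotation were not given in the sources used here. Rows without a gene name (0.138% to 0.237% of counts) were left out. Counts of the 16878 named transcripts found in both tables were summed per gene name, giving 12697 genes, with each library's size taken from the named rows of its own table; the deposited tables hold 283 and 266 unnamed transcripts. The smallest transcript sum was 17 in both tables. Positions are from GENCODE M21 (GRCm38); all 46 genes matched.

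Tests used edgeR 4.0.16 in R 4.3.3 (robust quasi-likelihood fit, TMM, default filter, two-sided, Benjamini-Hochberg, threshold 0.05): the 12 precipitates together for Kif5A against IgG and for precipitates between tissues, all 18 libraries for contrasts with input, and the 6 inputs alone between tissues. Each SE of a log2 ratio was derived from the edgeR test, as the size of the ratio over the square root of its F statistic. DESeq2 1.42.0 and the other alternatives are in the closing section. The code was tested on simulated data. Nothing beyond the statement of independent repeats separates biological from technical spread. Reads amplified by PCR and not tagged by molecule are not independent, so counting intervals and floors cover counting error only. Dcn-201 and Dcn-202 are near-identical transcripts and were summed.

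Libraries are numbered 1 to 3 in the titles. Deviations from the group means correlated between libraries of equal number at 0.243, 0.151 and 0.404 for the inputs of the 2 tissues and at 0.103, 0.310 and 0.348 for Kif5A and input of sciatic nerve, each above 0.1, so the numbers pair those groups. The labels also state that both tissues came from the same animals. In the other contrasts at least 1 correlation was lower. Genes described library by library are those with an adjusted p under 0.05 (at most 3 per contrast), the 3 with the smallest p in each contrast, the 2 with the highest mean CPM in each of 4 families, and Col1a2; others described so, such as Fmod, Col9a2, Col4a4, Sparc and the 3 genes of 1 table, were chosen after their values were seen. The genes, lists and contrasts were chosen with earlier results of these data known. Results for 1 gene and 1 sequence are not reported here.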

Additional observations from a re-analysis of the deposited data

How the results depend on the processing

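Counts of called matrix genes depended on the tool and on single libraries. DESeq2 called 1 gene for Kif5A against IgG in sciatic nerve, 2 for Kif5A against input in dorsal root and 2 in sciatic nerve, 8 and 5 for IgG against input in dorsal root and sciatic nerve, and 24, 10 and 19 between the tissues in input, Kif5A and IgG, where edgeR gave 13, 4 and 12. In these last 3 contrasts all genes called by edgeR were among those called by DESeq2. Fitting only the groups compared gave 1 for Kif5A against input in dorsal root and 9 and 2 between the tissues in Kif5A and IgG. Library size alone gave 3 for IgG against input in dorsal root. Leaving out 1 library gave 5 to 32 calls between inputs, 1 to 4 between Kif5A precipitates, 7 to 10 between IgG precipitates, 0 to 1 for Kif5A against input in sciatic nerve, 0 to 5 and 0 to 3 for IgG against input in dorsal root and sciatic nerve, and 0 for the other contrasts. With the replicate block, IgG against input gave 4 in dorsal root and 1 in sciatic nerve. There the correlations of the check above stayed below 0.1, which does not exclude pairing. The block gave 16, 4 and 11 calls between the tissues in input, Kif5A and IgG, and 0 elsewhere. In IgG between the tissues, Fmod (edgeR adjusted p = 0.0528) and Lamb2 (edgeR adjusted p = 0.0523) were lost. DESeq2 size factors, no filter, all named transcripts of each table and, chosen after seeing the data, fits within 1 tissue's own table left each count within 1.5 times of the values reported. Among the planned checks of single genes, 555 stayed on their side of the threshold, 73 lost it and 22 passed it, and none reversed. Leaving out a library also leaves fewer degrees of freedom, and the cause of these shifts was not tested. Few counts limit what can be read from Lama3, Col26a1 and Col12a1, with at most 3 in dorsal root IgG.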
